A study of Mus musculus with 15 samples.

Results

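Krüppel-like factors are zinc finger transcription factors, and 9 of their genes (Klf2, Klf3, Klf4, Klf6, Klf7, Klf9, Klf10, Klf13 and Klf15) were followed through the ventricles of mice in which the RNA-binding protein Celf1 was switched on in the heart. They were chosen by symbol, as factors related to blood flow, metabolism and hypertrophy, from the 16042 genes of the table, which holds 16 Klf genes in all. All 9 reached a mean of 1 RPKM (reads per kilobase of a gene, scaled by depth) over the 15 mice and were among the 10868 genes tested. The values measure polyadenylated RNA, 1 value per gene.

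The induced mice (MHCrtTA/TRECUGBP1) carried the tetracycline-dependent activator rtTA behind the alpha myosin heavy chain promoter, together with a tet-inducible, Flag-tagged human Celf1, LYLQ isoform. Groups of 3 such mice had doxycycline food (2 g/kg) for 12 hours, 24 hours, 72 hours or 7 days. The 3 control mice (MHCrtTA) carried the activator alone and had the same food for 72 hours, so of the 4 induced groups the 72 hour one is matched to them in time. All mice were 20 to 22 weeks old, all food was taken away 2 to 3 hours before the doxycycline food, and the tissue was ventricle without atria and without the tip of the apex. The activator's promoter limits induction to heart muscle cells, whereas the RNA came from whole ventricle, in which fewer cells of a type and less RNA per cell cannot be told apart. The labels give each mouse a number and do not say whether mice shared a litter or a cage.

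Krüppel-like factors bind GC-rich and CACCC sequences through zinc fingers at the carboxyl end, and the rest of the protein decides whether they activate or repress. In endothelium, Klf2 and Klf4 are induced by steady flow through a kinase cascade that ends on Mef2 factors, and they keep vessels anticoagulant and quiescent. In heart muscle, Klf15 is known for driving the use of amino acids and fat and for restraining hypertrophy, and several relatives respond to glucocorticoids, to TGF-beta or to injury.

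Promoters of 4 members are shown, the flow-induced pair Klf2 and Klf4 and the members with the largest 7 day change in each direction, Klf15 and Klf6. They run from 250 bases before to 50 bases after the annotated start and show the sites the family itself is known to bind. The sequences come from RefSeq (GRCm38.p6) and are written 5′ to 3′ on the gene's strand. Capitals mark matches on either strand to the GC box (GGGCGG), the CACCC box (CACCC) and the E-box (CACGTG), which is the type of site bound by clock and Myc factors. Klf2 lies at chr8:72318812-72319111 on the plus strand, Klf4 at chr4:55532426-55532725 on the minus strand, Klf6 at chr13:5861239-5861538 on the plus strand and Klf15 at chr6:90462326-90462625 on the plus strand.
Klf2: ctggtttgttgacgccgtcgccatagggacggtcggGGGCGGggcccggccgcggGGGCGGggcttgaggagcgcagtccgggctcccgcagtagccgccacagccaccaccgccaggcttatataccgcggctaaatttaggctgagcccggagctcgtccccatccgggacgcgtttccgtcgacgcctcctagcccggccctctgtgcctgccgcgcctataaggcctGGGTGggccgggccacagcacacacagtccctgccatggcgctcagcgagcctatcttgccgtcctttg
Klf4: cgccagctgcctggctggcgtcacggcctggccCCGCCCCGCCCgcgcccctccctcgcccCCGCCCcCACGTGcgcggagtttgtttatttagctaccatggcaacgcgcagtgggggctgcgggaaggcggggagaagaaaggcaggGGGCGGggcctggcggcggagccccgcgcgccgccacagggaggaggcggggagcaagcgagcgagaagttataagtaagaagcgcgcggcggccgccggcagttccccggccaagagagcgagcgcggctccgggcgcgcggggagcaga
Klf6: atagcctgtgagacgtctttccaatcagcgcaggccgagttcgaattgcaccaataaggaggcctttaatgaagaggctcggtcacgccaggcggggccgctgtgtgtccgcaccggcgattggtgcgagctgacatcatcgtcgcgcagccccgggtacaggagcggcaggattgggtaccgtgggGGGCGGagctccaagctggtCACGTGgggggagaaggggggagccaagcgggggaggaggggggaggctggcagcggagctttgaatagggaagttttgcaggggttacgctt
Klf15: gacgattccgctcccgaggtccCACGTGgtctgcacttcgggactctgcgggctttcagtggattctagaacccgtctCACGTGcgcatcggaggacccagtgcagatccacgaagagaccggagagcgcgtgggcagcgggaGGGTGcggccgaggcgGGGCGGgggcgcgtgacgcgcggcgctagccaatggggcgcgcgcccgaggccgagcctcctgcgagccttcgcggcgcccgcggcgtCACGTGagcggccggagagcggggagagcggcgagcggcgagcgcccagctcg

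Of the 9 members, 8 matched an entry of the promoter table. The GC box was present in 7 of these 8 promoters, against 35.7% of all 32851 promoters in the table. The CACCC box was present in 6 of 8, against 57.5% of all promoters. An E-box was present in 3 of 8, against 7.15% of all promoters, with 3 matches in Klf15 and 1 each in Klf4 and Klf6. AGAACA (18.97% of all promoters), TATAAA (13.6%) and CTATTTA (2.91%), which resemble a glucocorticoid receptor half-site, the TATA box and a Mef2 site, had no exact match in these 8 windows. For orientation in the build of the deposited values, mm9, the genes lie at chr8:74842932-74845555 (Klf2), chr4:55540013-55545347 (Klf4), chr6:90412570-90425232 (Klf15), chr19:23215716-23241401 (Klf9), chr13:5860735-5869639 (Klf6), chr15:38221219-38230464 (Klf10), chr7:71031237-71083801 (Klf13), chr5:65194628-65221368 (Klf3) and chr1:64076021-64168856 (Klf7), from GENCODE vM1. Klf4, Klf7, Klf10 and Klf13 are on the minus strand. Neighbouring matches overlapped once in each of Klf3, Klf4 and Klf13, and a match is a run of letters, not a measured site.

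After 7 days Klf6 had the highest level of the members, at 51.1 ± 9.60 RPKM, Klf9 followed at 25.5 ± 4.63 RPKM and Klf4 at 15.8 ± 2.87, and Klf15 was lowest at 5.24 ± 2.65 (SD, n = 3). These 3 highest did not overlap each other, and all lower neighbours in that order (Klf3, Klf10, Klf2, Klf13, Klf7, Klf15) did. In control ventricles the order was another one, from Klf9, at 45.4 ± 1.80 RPKM, to Klf10, at 5.84 ± 1.90 RPKM (SD, n = 3). Klf2 followed Klf9 at 40.2 ± 8.002 RPKM and its values overlapped those of Klf9. Klf15 (27.9 ± 0.84 RPKM), Klf4 (22.1 ± 1.98), Klf6 (19.6 ± 2.27), Klf3 (12.9 ± 0.64), Klf13 (10.003 ± 1.29) and Klf7 (6.81 ± 0.17) came next. Of these neighbours, Klf4 and Klf6, and Klf7 and Klf10, overlapped.

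**Figure D1:**
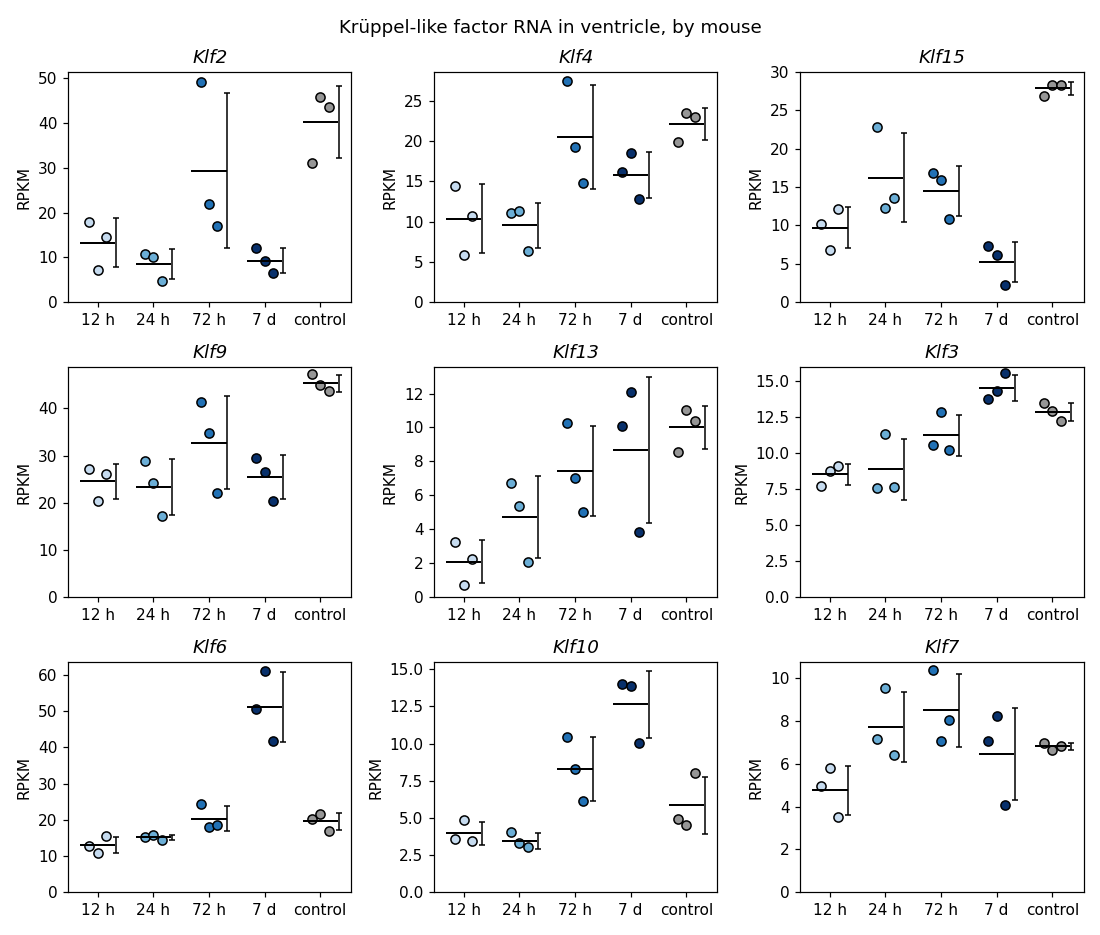
RPKM of the 9 Krüppel-like factors (1 panel each, linear scale) in every mouse, with points for mice, a line for the group mean and a bar for its SD (n = 3), from 12 hours to 7 days of induction, with control at the right. Klf6 and Klf10 stand highest at 7 days, Klf15 lowest at 7 days, and Klf2 is below all controls at 12 hours, 24 hours and 7 days.

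Over the 5 groups, 8 of the 9 members differed (limma's F test, Benjamini-Hochberg over all tested genes, threshold 0.05), and so did 71.3% of all tested genes. Klf6 had the smallest adjusted p, 1.86e-06, and Klf7 was the member that missed the threshold, at 0.0662. Against control, the comparisons share the same 3 control mice and are given side by side. At 12 hours 6 of 9 members were lower and 0 higher, against 12.7% and 0.524% of all tested genes. At 24 hours 4 of 9 were lower and 0 higher, against 10.6% and 5.38%. At 72 hours 0 of 9 passed limma's test in either direction, against 6.39% of all genes higher and 5.22% lower, and 2 members had an unadjusted p under 0.05. At 7 days 3 of 9 were lower and 2 higher, 5 in all, against 28.2%, 26.7% and 54.8% of all genes.

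In order of time, the members' median log2 fold change against control was -0.87, -0.80, -0.19 and -0.30. The median over all tested genes was -0.30, -0.19, -0.10 and -0.03, so at 12 hours a general shift of the table lies under every value. With median-of-ratios scaling it was 0.01, -0.01, -0.02 and 0.04. Of the 6 members lower at 12 hours, 1 (Klf13) then passed, and 0 passed with the column code as a term or without control A3259 or A3280. At 24 hours Klf2 passed in all 15 alternatives, while Klf4 and Klf9 did not pass without A3262, control A3259 or control A3280. The column code is not among these 15, since for the 24 hour group code and group cannot be told apart. All 3 mice lay below all 3 controls for 8 of 9 members at 12 hours (43.0% of all genes), for 8 of 9 at 24 hours (32.9%), for 2 of 9 at 72 hours (19.5%) and for 4 of 9 at 7 days (34.5%). All 3 lay above all 3 controls for 0 of 9 at 12 hours (4.60% of all genes), for 0 of 9 at 24 hours (13.9%), for 1 of 9 at 72 hours (15.5%) and for 3 of 9 at 7 days (32.4%).

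Between successive times, which do not share the control mice, 0 of 9 members passed limma's test from 12 to 24 hours, against 3.92% of all genes (3.35% higher), and 3 had an unadjusted p under 0.05. The mice of 24 hours lay all above those of 12 hours for 2 of 9 (18.3% of all genes) and all below for 0 of 9 (4.70%). At 72 hours, 3 of 9 were higher than at 24 hours and 0 lower, against 7.67% and 2.57% of all genes (10.2% in all). The values lay all above for 4 of 9 (17.5%) and all below for 0 of 9 (8.95%). At 7 days, 2 of 9 were higher and 2 lower than at 72 hours, against 22.6% and 22.3% of all genes (44.9% in all). The values lay all above for 2 of 9 (25.0%) and all below for 2 of 9 (26.2%).

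**Figure D2:**
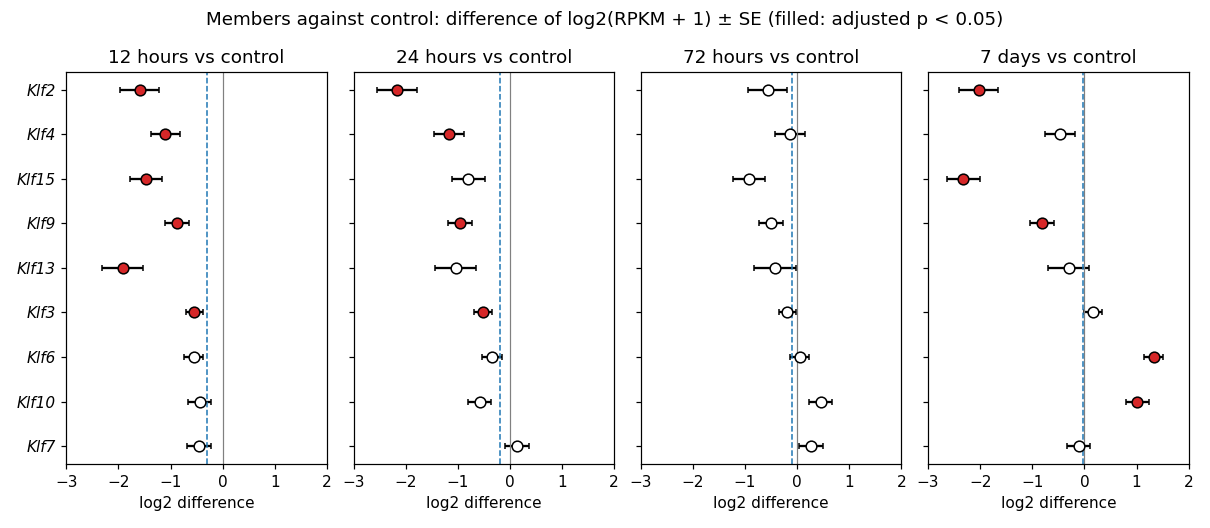
Log2 fold change against control with its standard error for each member at the 4 times of induction (filled points passed an adjusted p of 0.05) with 1 panel for each time, and the median of all tested genes as a dashed line. The filled members number 6, 4, 0 and 5 in order of time.

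Some facts of the series touch every result. The estimated depth lay between 16.4 and 52.1 M reads a column (median 26.6 M). Celf1 itself, listed as Cugbp1, read 220 to 351 RPKM after 12 hours, 295 to 423 after 24 hours, 159 to 181 after 72 hours and 29.5 to 37.9 after 7 days, against 33.3 to 36.1 in controls, so that at 7 days its values overlapped those of controls and did not set the mice labelled 7 days apart. Markers of heart muscle were high in all 15 mice, and those of atria summed to 12.1 to 149 RPKM in induced mice and 65.5 to 78.7 in controls. At 7 days the 6 heart muscle markers were all lower (summed 10975 to 12298 RPKM, against 41350 to 44082 in controls). The 6 fibroblast markers were all higher (1972 to 2641 RPKM, against 500.1 to 582), as were the 6 measured macrophage markers (316 to 477, against 62.0 to 81.0). Of 7 endothelial markers 4 were lower at 7 days (168 to 205 RPKM, against 234 to 267). Every column carries a code of unstated meaning. The 3 controls share theirs with 1 induced mouse, A3278 of the 72 hour group, and for the 24 hour group code and group cannot be told apart. With the column code as a term, each difference from control rests on A3278, the only link between controls and induced mice. At 72 hours that value equals the mouse's own difference from the controls' mean, such as 0.31 for Klf2 and -0.70 for Klf15. Calls kept or lost in that setting thus depend on 1 mouse.

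**Figure D3:**
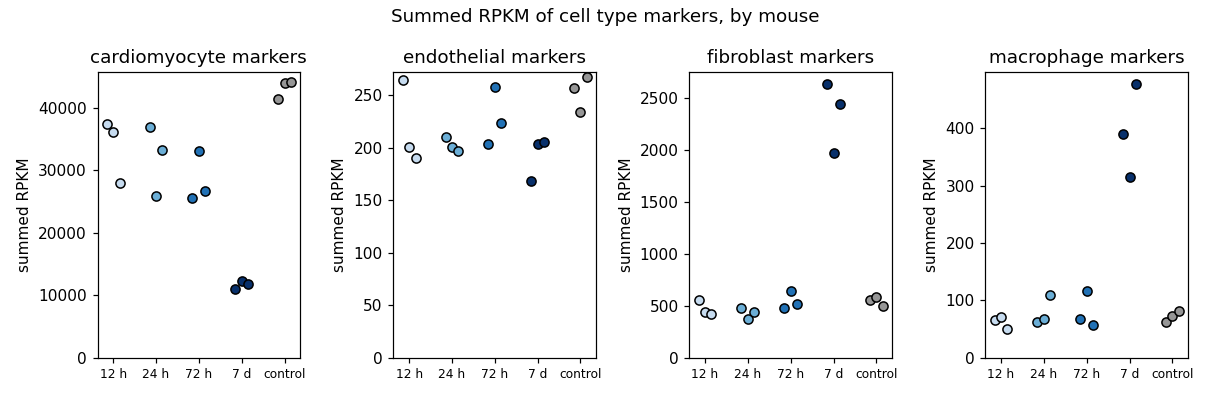
Summed RPKM (linear scale) of marker genes of heart muscle, endothelium, fibroblasts and macrophages (1 panel each) in every mouse (points), from 12 hours to 7 days, with control at the right. Heart muscle markers are lowest and fibroblast and macrophage markers highest at 7 days.

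Klf2, the flow-induced regulator of endothelium, was lower in the 12 hour, 24 hour and 7 day groups. After 12 hours the 3 mice read 17.95, 7.22 and 14.66 RPKM, after 24 hours 10.82, 10.12 and 4.62, after 72 hours 49.25, 21.87 and 17.05, and after 7 days 12.06, 9.11 and 6.45, against 31.07, 45.95 and 43.61 in controls. All induced mice except A3278, which read highest of all 15, lay below controls at 72 hours, and all mice did at the other times. The log2 fold change was -1.59 ± 0.38 at 12 hours (SE, adjusted p = 0.018), -2.17 ± 0.38 at 24 hours (adjusted p = 0.00703), -0.57 ± 0.38 at 72 hours (adjusted p = 0.339) and -2.03 ± 0.38 at 7 days (adjusted p = 0.000248). Between successive times Klf2 was higher at 72 hours than at 24 hours (1.60 ± 0.38, adjusted p = 0.0125) and lower at 7 days than at 72 hours (-1.47 ± 0.38, adjusted p = 0.00454). With the column code as a term the difference from control was 0.17 for the 12 hour group and -0.565 for the 7 day group, and neither passed.

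Klf2 also varied between the 2 columns of 1 mouse, and its median ratio was the highest of the 9 members. Over the 5 mice with 2 columns, the ratio of the higher to the lower value was 1.34 to 2.64, with a median of 1.96. Its longest transcript is 61.6% GC, above 97.8% of the 9672 tested genes with a known GC content. With a GC correction the 12 hour call was lost and the 24 hour and 7 day calls remained. The column code has no stated meaning, and its part in the 12 hour value was not tested beyond that.

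Klf4, the other flow-induced member, was lower at 12 and 24 hours. After 12 hours it read 14.47, 5.88 and 10.67 RPKM, after 24 hours 11.06, 11.27 and 6.29, after 72 hours 27.52, 19.3 and 14.74, and after 7 days 16.21, 18.49 and 12.79, against 19.83, 23.46 and 23.01 in controls. The mice of 12 hours, 24 hours and 7 days lay below all controls, and the mice of 72 hours spread over them. The log2 fold change was -1.10 ± 0.28 at 12 hours (adjusted p = 0.0231), -1.17 ± 0.28 at 24 hours (adjusted p = 0.0166), -0.14 at 72 hours (adjusted p = 0.775) and -0.47 at 7 days (adjusted p = 0.172). It was higher at 72 hours than at 24 hours (1.03 ± 0.28, adjusted p = 0.0281).

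Of 10 known endothelial targets of Klf2 and Klf4 0 were higher and 3 lower at 12 hours, 0 and 2 after 24 hours, 2 and 1 after 72 hours, and 3 and 7 at 7 days. The list's median was -0.40, -0.46, -0.22 and -0.79 at these times. Of all tested genes, 0.524% were higher and 12.7% lower at 12 hours, and 5.38% and 10.6% at 24 hours. The shares were 6.39% and 5.22% at 72 hours, and 26.7% and 28.2% at 7 days. They apply to the counts of every list below as well. The list also holds adhesion molecules that Klf2 is known to hold down, so its counts and median join targets of opposite sign. With the column code as a term 0 were lower at 12 hours and 2 at 7 days. Among genes with a mean RPKM of 5 or more 1 was higher at 7 days. At 24 hours 1 was lower without a filter, with GC correction, without A3262 or without any 1 of the controls, and 4 were without A3254 or in a fit of the 2 groups alone. Thrombomodulin (Thbd), which makes endothelium anticoagulant, read 11.7 to 13.3 RPKM at 12 hours, 12.0 to 20.8 at 24 hours, 22.5 to 27.5 at 72 hours and, after 7 days, 10.03 to 17.8, against 24.4 to 31.6 in controls. It was below controls at 12 hours (-1.14 ± 0.22, adjusted p = 0.00811) and 24 hours (-0.77 ± 0.22, adjusted p = 0.0301). The chemokine Cxcl12 was lower at 12 hours (-1.56 ± 0.35, adjusted p = 0.0145) and at 24 hours (-2.32 ± 0.35, adjusted p = 0.00423). The water channel Aqp1 was lower at 12 hours (-1.29 ± 0.24, adjusted p = 0.00606) and at 7 days (-2.50 ± 0.24, adjusted p = 2.41e-07). All 10 genes passed at 7 days, so each gene of this list named for an earlier time was called then too, in the same direction.

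Klf2 is known to hold down endothelial adhesion molecules. Sele (1.33 ± 0.25, adjusted p = 0.00275) and Vcam1 (0.61 ± 0.17, adjusted p = 0.0275) were higher at 72 hours, while Ptgds, the prostaglandin D synthase, was lower (-0.73 ± 0.23, adjusted p = 0.0479). Klf2 itself did not pass at 72 hours (adjusted p = 0.339). At 12 and 24 hours, when Klf2 was lower, Vcam1 read 4.24 to 4.50 and 5.14 to 7.11 RPKM, against 4.51 to 6.82 in controls. Sele then read 0.02 to 0.56 and 0.12 to 0.71 RPKM, against 0.20 to 0.40, and neither gene was called higher. It met the filter of a mean of 1 RPKM only through the 72 hour (1.86 to 2.795) and 7 day (1.22 to 3.505) groups. Its calls at these times, and its place in the list's counts, are therefore not independent of the filter. At 72 hours 0 of the list were higher with the column code as a term, and 1 was with first columns, with a mean RPKM of 5 or more, in a fit of the 2 groups alone, or without A3264, A3281, control A3250 or control A3280. The 72 hour count of lower genes was 0 in 12 of 16 alternatives. At 7 days Vcam1 was higher by 1.41 ± 0.17 (adjusted p = 3.11e-06). At 7 days, when 7 of the 10 were lower, 4 of 7 endothelial markers were lower too, and Kdr is counted in both lists. The markers Emcn (0.30, all mice above all controls), Pecam1 (0.17) and Cldn5 (-0.16) did not pass. The part of endothelial content in the values of the target genes was not tested.

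Of 11 genes upstream in the flow pathway, 0 were higher and 2 lower after 12 hours, 1 and 0 after 24 hours, 3 and 0 after 72 hours, and 3 and 1 after 7 days. The list's median was -0.38, -0.25, -0.17 and 0.01. At 7 days 26.7% of all tested genes were higher and 28.2% lower. At 12 hours the lower ones were Map3k3 (-0.77 ± 0.21, adjusted p = 0.0298), the Mekk3 kinase at the head of the cascade, and the transcription factor Mef2d (-0.72 ± 0.23, adjusted p = 0.0473). Pdcd10 encodes a cerebral cavernous malformation protein, of a complex known to restrain that cascade. It was higher at 24 hours (1.27 ± 0.24, adjusted p = 0.00798), 72 hours (1.02 ± 0.24, adjusted p = 0.0122) and 7 days (1.94 ± 0.24, adjusted p = 4.65e-06). Krit1, its partner in that complex, was higher at 72 hours (0.77 ± 0.22, adjusted p = 0.0313) and 7 days (0.68 ± 0.22, adjusted p = 0.0148). Map3k2, the Mekk2 kinase, activates the same cascade as Map3k3 and was also higher at 72 hours (0.85 ± 0.18, adjusted p = 0.00734) and 7 days (0.82 ± 0.18, adjusted p = 0.0012), at a mean of 2.58 and 2.48 RPKM, against 0.973 in controls. The transcription factor Mef2c was lower at 7 days (-0.50 ± 0.19, adjusted p = 0.0391).

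The calls in this flow list before 7 days depended on the settings. The 12 hour count was 0 in 9 of 16 alternatives, among them both scalings, GC correction, the column code and leaving out any 1 of the controls. At 24 hours 0 were higher with GC correction or without control A3280. At 72 hours 0 were higher with the column code or without A3281, and 1 was with GC correction, in a fit of the 2 groups alone, or without A3264 or control A3280. At 7 days 2 to 4 were higher in all 16, and 0 were lower in 8 of them.

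Klf15, the metabolic regulator of heart muscle, fell furthest at 7 days. It read 10.13, 6.82 and 12.15 RPKM after 12 hours, 22.87, 12.27 and 13.52 after 24 hours, 16.8, 15.92 and 10.83 after 72 hours, and 7.33, 6.13 and 2.25 after 7 days, against 26.91, 28.36 and 28.36 in controls. Every induced mouse lay below every control at all 4 times. Its log2 fold change was -1.46 ± 0.31 at 12 hours (adjusted p = 0.011), -0.80 ± 0.31 at 24 hours (adjusted p = 0.0792), -0.92 ± 0.31 at 72 hours (adjusted p = 0.0624) and -2.32 ± 0.31 at 7 days (adjusted p = 8.76e-06). It was lower at 7 days than at 72 hours (-1.40 ± 0.31, adjusted p = 0.00141).

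The 7 day difference of Klf15 passed under all 16 alternative settings, the column code among them (-1.73). Mouse A3278, the only induced mouse that shares the controls' code and so carries that setting, had a log2 difference of -0.70 from their mean. Without A3278 the 72 hour group passed for Klf15 (-1.03, adjusted p = 0.0409).

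Known Klf15 targets in amino acid, glucose and fat use were mostly lower at 7 days, when 28.2% of all genes were. Of 15 measured genes 0 were higher and 2 lower after 12 hours, 0 and 2 after 24 hours, 0 and 6 after 72 hours, and 2 and 13 after 7 days. The list's median was -0.22, -0.36, -0.53 and -1.60. The count of 13 lower genes at 7 days held under all 16 alternatives, and the count of 6 at 72 hours was 4 to 8 except with the column code, when it was 0. Lower at 12 hours were Prodh (-0.85 ± 0.18, adjusted p = 0.0106), which starts proline breakdown, and the alanine aminotransferase Gpt2 (-0.63 ± 0.18, adjusted p = 0.0314). The 12 hour count was 0 in 6 of 16 alternatives, among them both scalings, GC correction and the column code. The 24 hour count was 0 without A3262 or control A3259 or A3280.

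At 72 hours the acetyl-CoA synthetase Acss1 (-1.10 ± 0.18, adjusted p = 0.000959), Gpt2 (-0.86 ± 0.18, adjusted p = 0.00526) and Bckdhb (-0.76 ± 0.16, adjusted p = 0.00538), a subunit of the branched-chain keto acid dehydrogenase, were lower. At 7 days Gpt2 read 2.64 to 3.89 RPKM, against 15.5 to 22.0 in controls (-2.25 ± 0.18, adjusted p = 2.01e-08). Kcnip2, which encodes the potassium channel partner KChIP2 and gives Klf15 its known link to the cardiac rhythm, read 0.78 to 1.52 RPKM at 7 days, against 21.1 to 24.5 in controls (-3.58 ± 0.19, adjusted p = 2.43e-10). Bckdhb (-1.90 ± 0.16, adjusted p = 3.84e-08) and Aldh6a1 (-2.01 ± 0.17, adjusted p = 5.18e-08), which acts in valine breakdown, were lower as well.

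The 2 that were higher at 7 days, named after their values were seen, were the fatty acid transporter Cd36 (1.04 ± 0.25, adjusted p = 0.00217) and the pyruvate dehydrogenase kinase Pdk4 (1.08 ± 0.40, adjusted p = 0.0286, groups overlapping). With GC correction or the column code neither passed. Of the 6 heart muscle markers 2 were lower at 72 hours (summed 25561 to 33098 RPKM, against 41350 to 44082 in controls) and all 6 at 7 days. Their part in the lower target genes was not tested.

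**Figure D4:**
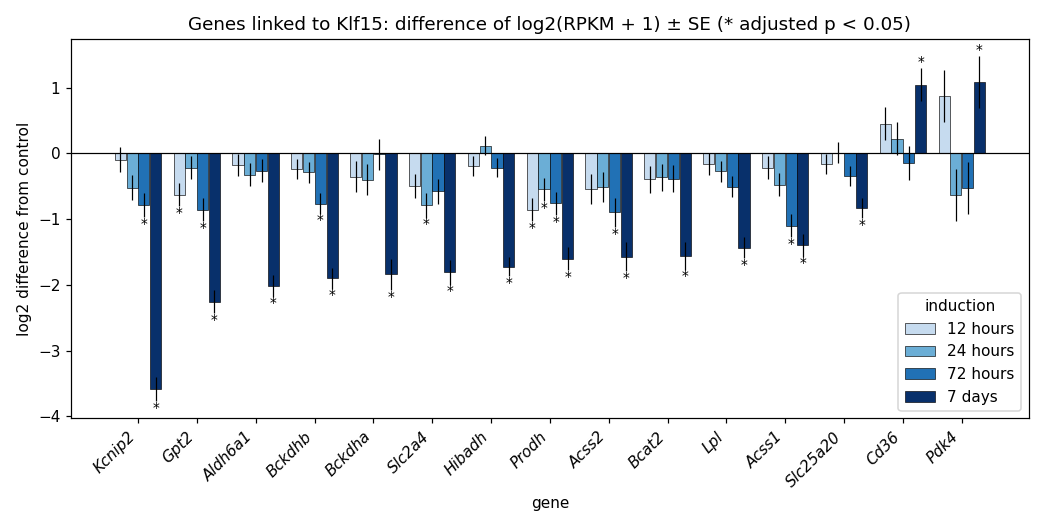
Log2 fold change against control with its standard error for the 15 measured Klf15 targets at the 4 times, with bars from light (12 hours) to dark (7 days), and an asterisk where the adjusted p was under 0.05. At 7 days 13 bars lie below and 2 above 0, and all 15 carry an asterisk.

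Klf9 responds to glucocorticoids and thyroid hormone and was lower at 12 hours, 24 hours and 7 days. It read 27.15, 20.4 and 26.13 RPKM after 12 hours, 28.9, 24.19 and 17.14 after 24 hours, 41.46, 34.72 and 22.08 after 72 hours, and 29.47, 26.56 and 20.4 after 7 days, against 47.28, 45.04 and 43.73 in controls. All 12 induced mice lay below all controls. Relative to control its log2 fold change was -0.87 ± 0.23 at 12 hours (adjusted p = 0.0266), -0.95 ± 0.23 at 24 hours (adjusted p = 0.0166), -0.50 ± 0.23 at 72 hours (adjusted p = 0.16) and -0.82 ± 0.23 at 7 days (adjusted p = 0.00609). With the column code as a term it was -0.15 at 12 hours and -0.17 at 7 days, and neither passed. With the first column of each mouse the 7 day value was -0.67 (adjusted p = 0.0636).

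Of 11 glucocorticoid-responsive genes 0 were higher and 8 lower after 12 hours, 2 and 2 after 24 hours, 0 and 1 after 72 hours, and 3 and 1 after 7 days. The list's median was -1.49, -0.57, -0.18 and 0.19. Of all tested genes, 0.524% were higher and 12.7% lower at 12 hours, and 26.7% and 28.2% at 7 days. The 12 hour count was 3 with median-of-ratios scaling, quantile normalization or GC correction, 0 with the column code, and 3 to 5 with a mouse left out. At 24 hours 0 passed without control A3259 or A3280. Among those lower at 12 hours were Zbtb16 (-1.63 ± 0.15, adjusted p = 8.33e-06) and Tsc22d3 (-1.49 ± 0.24, adjusted p = 0.00215), the glucocorticoid-induced leucine zipper. Per1, a clock gene that glucocorticoids induce, was also lower (-1.93 ± 0.30, adjusted p = 0.00182). At 7 days the glucocorticoid receptor cochaperone Fkbp5 was higher (2.80 ± 0.22, adjusted p = 1.87e-08).

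Of 14 clock genes 1 was higher and 9 were lower after 12 hours, 0 and 6 after 24 hours, 1 and 0 after 72 hours, and 3 and 8 after 7 days. The list's median was -1.07, -0.57, -0.32 and -0.76. Of all tested genes, 0.524% were higher and 12.7% lower at 12 hours, and 26.7% and 28.2% at 7 days. With the column code as a term 2 were still lower and 1 higher at 12 hours, and without A3262 or control A3259 or A3280 the 24 hour count was 0, as was the count of lower genes then with GC correction. At 12 hours Per2, which represses the core loop, was lower (-2.86 ± 0.17, adjusted p = 4.22e-08), while Arntl, the activator Bmal1, was higher (2.47 ± 0.20, adjusted p = 2.36e-06). The labels do not give the clock time at which each group was killed, and the part of the clock in the values of Klf9 and Klf15 was not tested.

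Klf6 rises after injury in many tissues and was the member that gained most. It read 12.81, 10.9 and 15.52 RPKM after 12 hours, 15.23, 15.85 and 14.42 after 24 hours, 24.39, 18.12 and 18.57 after 72 hours, and 50.57, 61.01 and 41.83 after 7 days, against 20.16, 21.52 and 17.08 in controls. The mice of 12 and 24 hours lay below all controls, those of 72 hours overlapped them, and those of 7 days lay above all other mice. Its log2 fold change was -0.56 at 12 hours (adjusted p = 0.0538), -0.34 at 24 hours (adjusted p = 0.188), 0.05 at 72 hours (adjusted p = 0.892) and 1.33 ± 0.18 at 7 days (adjusted p = 1.32e-05). It was higher at 7 days than at 72 hours (1.28 ± 0.18, adjusted p = 2.85e-05). Its values differed little between the 2 columns of 1 mouse, by a ratio of 1.02 to 1.26.

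Klf10, a TGF-beta-inducible repressor, was the other member that was higher. It read 3.56, 4.84 and 3.47 RPKM after 12 hours, 4.08, 3.34 and 3.04 after 24 hours, 10.47, 8.26 and 6.14 after 72 hours, and 13.98, 13.87 and 10.05 after 7 days, against 4.95, 4.55 and 8.03 in controls. The 24 hour mice lay below all controls, and those of 12 and 72 hours overlapped them. The log2 fold change at 7 days was 1.01 ± 0.22 (adjusted p = 0.00105), and the 7 day mice lay above all controls. Klf10 was higher at 72 hours than at 24 hours (1.03 ± 0.22, adjusted p = 0.00789) and higher again at 7 days than at 72 hours (0.57 ± 0.22, adjusted p = 0.0477, groups overlapping). At 72 hours it stood at 0.45 ± 0.22 above control (adjusted p = 0.195).

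The 7 day differences of Klf6 and Klf10 passed under all 16 alternatives, and with the column code as a term they were 1.80 and 1.60. That setting ties the controls to the induced mice through A3278 alone. The summed fibroblast and macrophage markers rose at 7 days too, and their part in the values of Klf6 and Klf10 was not tested.

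Of 11 genes of the TGF-beta response 0 were higher and 1 lower after 12 hours, 1 and 1 after 24 hours, 0 and 0 after 72 hours, and 6 and 1 after 7 days. At 72 hours 3 of the 11 had an unadjusted p under 0.05. The list's median was -0.44, -0.40, 0.05 and 0.94. At 7 days 26.7% of all tested genes were higher and 28.2% lower. The ligand Tgfb2 read 22.8 to 29.4 RPKM at 7 days, against 2.83 to 4.02 in controls (2.56 ± 0.22, adjusted p = 5.02e-08). The receptor Tgfbr1 was higher at 24 hours (1.28 ± 0.26, adjusted p = 0.0092) and at 7 days (1.54 ± 0.26, adjusted p = 9.67e-05). Smad7, the inhibitory Smad, was lower at 12 hours (-1.10 ± 0.23, adjusted p = 0.0114). In the whole list 0 were lower at 12 hours with the column code or without control A3259 or A3280. At 24 hours 0 were higher without A3262 or control A3280, and 0 were lower in 9 of 15 alternatives. At 7 days 5 to 7 were higher in all 16 alternatives, and 0 were lower in 9 of them.

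Klf13, a relative of Klf9 known from work on Xenopus as a partner of Gata4 in the heart, fell furthest of all members at 12 hours. It read 3.27, 0.73 and 2.28 RPKM after 12 hours, 6.75, 5.36 and 2.05 after 24 hours, 10.27, 7.04 and 5.01 after 72 hours, and 10.07, 12.08 and 3.87 after 7 days, against 8.56, 11.04 and 10.41 in controls. The mice of 12 and 24 hours lay below all controls, and those of the later times overlapped them. Against control Klf13 stood at a log2 fold change of -1.92 ± 0.40 at 12 hours (adjusted p = 0.0105). Its later differences of -1.04, -0.42 and -0.30 did not pass. Of the 6 members called at 12 hours, Klf13 was the one that still passed with median-of-ratios scaling, quantile normalization or a GC correction. It also had the largest single difference between columns of 1 mouse, with 19.22 and 4.93 RPKM in A3283 of the 7 day group.

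**Figure D5:**
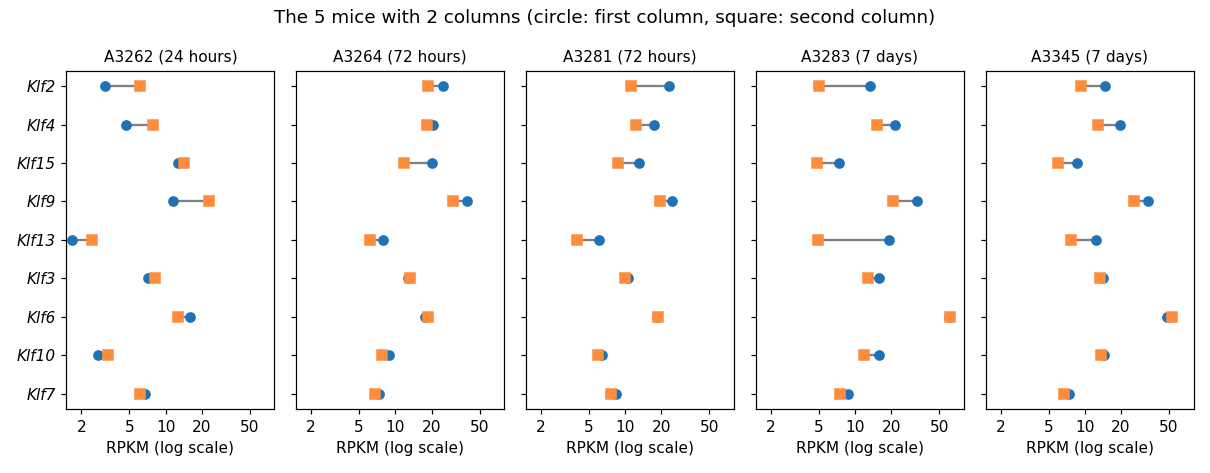
RPKM (log scale) of the 9 members in both columns of each of the 5 mice that have 2 columns, with a circle for the first and a square for the second column. The values of Klf2 and Klf13 lie furthest apart, and those of Klf3, Klf6 and Klf7 the closest.

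Klf3, which represses through the corepressor Ctbp2, was lower at 12 hours (-0.54 ± 0.17, adjusted p = 0.0442) and 24 hours (-0.51 ± 0.17, adjusted p = 0.0491). Its mice read 7.72, 8.73 and 9.13 RPKM after 12 hours, 7.61, 11.3 and 7.68 after 24 hours, 10.58, 12.88 and 10.22 after 72 hours, and 13.74, 14.3 and 15.53 after 7 days, against 13.47, 12.93 and 12.2 in controls. The 7 day mice lay above all controls without passing the test (0.16, adjusted p = 0.436). The 12 hour call held in 5 of 16 alternatives and the 24 hour call in 4 of 15. At 12 hours the value was -0.21 with median-of-ratios scaling and -0.098 with GC correction.

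Klf7, known for its part in axon growth, did not pass the test in any comparison. It read 4.96, 5.78 and 3.51 RPKM after 12 hours, 7.13, 9.52 and 6.4 after 24 hours, 10.38, 7.04 and 8.02 after 72 hours, and 7.06, 8.21 and 4.08 after 7 days, against 6.97, 6.63 and 6.82 in controls. The 12 hour mice lay below and the 72 hour mice above all controls. Exons of Klf7 overlap those of other genes on the opposite strand, so its values are uncertain where the counting did not use strand.

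Of the 7 other Klf and Sp genes that were tested, 0 passed at 12, 24 or 72 hours, and 1, 3 and 1 of them had an unadjusted p under 0.05 at those times. Their median was -0.36, -0.11, -0.12 and -0.09 in order of time. At 7 days 1 was higher, against 26.7% of all tested genes. This was Sp3, which binds the same GC boxes. It read 20.7 to 29.1 RPKM, against 7.41 to 10.7 in controls (1.34 ± 0.20, adjusted p = 3.17e-05). Sp3 did not pass with the column code as a term. Klf11 came nearest to the threshold at 24 hours (-0.58 ± 0.20, adjusted p = 0.0507).

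Of 10 corepressors and partners of these factors 0 passed after 12 hours (3 at an unadjusted p under 0.05), 1 was higher and 2 were lower after 24 hours, 1 and 1 after 72 hours, and 1 and 2 after 7 days. The median was -0.11, -0.21, -0.02 and 0.13. At 7 days 26.7% of all tested genes were higher and 28.2% lower. Ctbp2 was lower at 24 hours (-0.74 ± 0.24, adjusted p = 0.0454), and the ubiquitin ligase subunit Fbxw7 was higher at 72 hours (1.36 ± 0.20, adjusted p = 0.000385). At 7 days Fbxw7 was lower (-0.57 ± 0.20, adjusted p = 0.0224). At 24 hours 0 of these genes were higher in 6 of 15 alternatives. In 8 of the 15, 0 were lower, among them both scalings and leaving out A3262 or any 1 of the controls. At 72 hours 1 or 2 were higher in all 16 alternatives, and 0 were lower in 9 of them. At 7 days 0 passed with the column code.

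Of 13 hypertrophy genes linked to these factors 0 were higher and 1 lower after 12 hours, 1 and 5 after 24 hours, 0 and 0 after 72 hours (4 at an unadjusted p under 0.05), and 6 and 4 after 7 days. The median was -0.50, -0.39, -0.24 and -0.02. At 7 days 26.7% of all tested genes were higher and 28.2% lower. The 12 hour count was 0 in 11 of 16 alternatives, and the 24 hour count was 0 without A3262 or without any 1 of the controls. At 7 days 5 or 6 were higher and 1 to 4 lower over the 16 alternatives, with 1 lower with first columns, with the column code, or without A3269 or control A3259 or A3280. At 7 days the natriuretic peptides Nppa (4.39 ± 0.37, adjusted p = 4.60e-08) and Nppb (2.36 ± 0.35, adjusted p = 2.64e-05) were higher, and the slow myosin Myh7 was lower (-2.85 ± 0.20, adjusted p = 5.43e-09). The heart muscle marker Myh6 was lower too (-3.07 ± 0.215). Myh7 read 372 to 457 RPKM at 7 days, against 2932 to 3214 in controls, and the mean of Myh6 was 1098 against 9150. The sources do not say how reads that fit both myosin genes were counted. The part of such reads, and of heart muscle content, in the Myh7 value was not tested.

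Of 12 immediate early genes, which like Klf2, Klf4, Klf6 and Klf10 are induced within minutes by growth factors, 0 were higher and 1 lower after 12 hours, 0 and 4 after 24 hours, 8 and 0 after 72 hours, and 5 and 1 after 7 days. The median was -0.54, -0.53, 1.42 and 0.61. Of all tested genes, 6.39% were higher and 5.22% lower at 72 hours, and 26.7% and 28.2% at 7 days. Fosb, Egr2 and Egr3 read at most 0.20, 0.50 and 0.82 RPKM in controls. These genes met the filter of a mean of 1 RPKM through the 72 hour and 7 day groups. The counts of higher genes at these times are therefore not independent of the filter. The 12 hour count was 0 with the column code or without control A3259 or A3280. The 24 hour count was 0 without A3262 or without control A3259 or A3280, and the 72 hour count was 4 among genes with a mean RPKM of 5 or more and 6 to 9 otherwise. At 7 days 10 were higher with the column code, 9 with GC correction, and 3 among genes with a mean RPKM of 5 or more or without A3283. At 72 hours Btg2 (2.06 ± 0.28, adjusted p = 0.000152), Atf3 (2.11 ± 0.30, adjusted p = 0.00029) and Fos (1.82 ± 0.34, adjusted p = 0.00297) were higher.

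Over the 15 mice, the members most alike were Klf2 and Klf9 (Pearson r of log2(RPKM + 1) = 0.92), Klf4 and Klf13 (0.88), Klf6 and Klf10 (0.84), and Klf4 with Klf2 and with Klf9 (0.84 each), with the groups pooled and given as a description. Among all other tested genes, Klf2 was closest to Zfp319 (0.97) and Caskin2 (0.96), Klf4 to Irx5 (0.97) and Ier5l (0.96), and Klf6 to Kirrel (0.98) and Tpcn2 (0.97). Klf15 was closest to Cpeb3 and D4Ertd429e (0.95 each), Klf10 to Ptbp1 (0.95), and Klf13 to 6430527G18Rik (0.98) and Cebpb (0.95). These correlations share the columns, the depth and the group means of the same 15 mice.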

How the data were processed

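Polyadenylated ventricle RNA of 15 mice was sequenced from paired ends, per the labels. The authors deposited 1 table of RPKM values for 16042 genes in 20 columns, and 5 mice have 2 columns, which were averaged. Per the submitters' processing notes TopHat and Bowtie were used with build mm9. The sources used here give no version, counting tool or use of strand. Depth was estimated from the steps between values of receptor genes, and no count model was used.

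Values were taken as log2(RPKM + 1), which understates changes of low genes. The 10868 genes whose mean over the mice reached 1 RPKM entered 1 limma fit (version 3.58.1, R 4.3.3, eBayes with trend) of all 15 mice in 5 groups, with 10 residual and 7.12 prior degrees of freedom. SE are moderated. P-values were adjusted by Benjamini-Hochberg over all tested genes, and adjusted p below 0.05 counted as passed. The share of all genes with an unadjusted p under 0.05 was not counted, so the counts given at that level have no background beside them. With 3 mice against 3 an exact permutation test cannot go below 0.1. On simulated data for 72 hours against control (10868 genes), 66.0% of 103 genes changed by 1 on the log2 scale and 95.9% of 97 changed by 2 were called, as were 0.0844% of unchanged genes.

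The members and lists were chosen with earlier results of these data known. Named list genes are at most 4 per list and time, by smallest adjusted p; 1 gene this rule names is not reported here. Motifs were counted in promoters by exact match. GC content came from GENCODE vM1 transcripts. Alternatives were no filter, a filter at a mean of 5 RPKM, a pseudocount of 0.1, 2 scalings (median-of-ratios, quantile), robust eBayes, the first column of each mouse, a GC correction, 2 groups alone, the column code as a term (16 columns, without the 24 hour group) and leaving out each mouse. Counts of list genes under the alternatives were added after the data were seen.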

Additional observations from a re-analysis of the deposited data

Results flagged for a closer look

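The members' steps between successive times that passed limma's test are given here, since each is a test that the effect differs between 2 induced groups. From 24 to 72 hours, Klf2 was higher at 72 hours by 1.60 on the log2 scale, Klf4 by 1.03 and Klf10 by 1.03. These are 3 of 9 members, against 7.67% of all tested genes that were higher in this step, and the 3 mice at 72 hours lay above all 3 at 24 hours for each. In a fit of these 2 groups alone 1 member passed. Without A3278 (72 hours) 1 passed, and without A3262 (24 hours) 1 passed.

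From 72 hours to 7 days, the log2 difference of 7 days from 72 hours was -1.47 for Klf2 and -1.40 for Klf15, while Klf6 was higher at 7 days by 1.28 and Klf10 by 0.57. These are 2 of 9 members lower and 2 higher, against 22.3% and 22.6% of all tested genes. The groups overlapped for Klf10, whose step passed in 6 of 15 alternatives. Between 12 and 24 hours 0 of 9 members passed limma's test, against 3.92% of all genes, and 3 had an unadjusted p under 0.05.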

How the results depend on the processing

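No paired analysis was possible because the mouse numbers in the labels pair no mice across groups. The number of members past the threshold at 12 hours (6) was 1 with median-of-ratios scaling, quantile normalization or GC correction and 0 with the column code, and 0 to 4 when each mouse was left out. It was 0 without control A3259 or A3280. At 24 hours (4) it was 1 to 5 with a mouse left out: Klf4 and Klf9 lost their calls without A3262 or control A3259 or A3280. At 72 hours (0) it was 1 in a fit of the 2 groups alone and 0 to 2 with a mouse left out. At 7 days (5) it was 3 with the column code. Between 24 and 72 hours (3) it was 1 with the 2 groups alone and 1 to 3 with a mouse left out.

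Over all genes, the number past the threshold at 12 hours (1432) was 880 without a filter, 226 with median-of-ratios scaling, 194 with quantile normalization, 718 with first columns, 177 with GC correction, 3244 with 2 groups alone, 9 with the column code and 137 to 1395 with a mouse left out; 57 were higher and 1375 lower, against 73 and 153, 51 and 143, and 67 and 110 with these 2 scalings and GC correction. At 24 hours (1736) it was 1056 without a filter, 909 with GC correction and 39 to 1836 with a mouse left out; 585 were higher and 1151 lower, against 927 and 735 with median-of-ratios scaling, 797 and 805 with quantile normalization and 463 and 446 with GC correction. At 72 hours (1262) it was 730 with first columns, 376 with the column code and 478 to 2490 with a mouse left out. At 7 days (5960) it was 3171 with the column code.

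The column code setting is tied to the controls through A3278 alone. Log2 differences that turned sign, of which Klf2 at 12 hours was called, were these. With the column code, 12 hours: Klf2 0.17, Klf6 0.055; 72 hours: Klf2 0.31, Klf4 0.31, Klf13 0.041; 7 days: Klf4 0.26, Klf7 0.42, Klf13 0.61. With GC correction, 72 hours: Klf3 0.0115, Klf4 0.053, Klf6 -0.16; 7 days: Klf13 0.028; 24 against 12 hours: Klf3 -0.038, Klf6 -0.0295. Klf3 in that step was -0.10 with median-of-ratios scaling and -0.11 with quantile normalization. Klf7, 72 against 24 hours, was -0.041 with quantile normalization. With first columns, Klf13 at 7 days was 0.0048 and Klf15, 72 against 24 hours, 0.092. With a mouse left out, the ranges were -0.0091 to 0.24 (Klf7, 24 hours), -0.37 to 0.063 (Klf4, 72 hours), -0.084 to 0.12 (Klf6, 72 hours), -0.29 to 0.14 (Klf7, 7 days) and -0.58 to 0.14 (Klf13, 7 days). For 24 against 12 hours they were -0.14 to 0.12 (Klf3), -0.39 to 0.19 (Klf4) and -0.25 to 0.11 (Klf9), for 72 against 24 hours -0.013 to 0.27 (Klf7) and -0.29 to 0.14 (Klf15), and for 7 days against 72 hours -0.15 to 0.56 (Klf13). The causes were not tested.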
